A study of Mus musculus with 6 samples.

Results

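The transcripts of VEGF family ligands (Vegfa, Vegfb, Vegfc and Pgf) were compared in murine tissues entangled with BMSCs-engineered cartilage (BEC). The 4 genes were found by their symbols among 48440 genes in the read count table, and all 4 had enough reads to be tested, as had 15257 genes in total. BEC had been grown from rabbit BMSCs on PLGA scaffolds, enclosed in an electrospun PCL/collagen membrane and placed under the skin of male BALB/c nude mice that were several weeks old. The 3%-Axitinib group (3 samples) had 3% axitinib by weight in the membrane, the 0%-Axitinib group (3 samples) had the membrane without the drug, and both were collected 12 weeks after implantation. Axitinib is a small molecule that blocks the kinase activity of VEGF receptors. The labels call the second group untreated controls, and it was read as the 0%-Axitinib group because the study's methods state that RNA was sequenced from these 2 groups, and the protocol given with the samples names only these 2 mass ratios. Nude mice lack a working thymus and have few T cells, so that the model shows the response of a host with little T cell immunity. The labels do not name the mouse of each sample, and the study placed a pair of constructs of one group in each mouse, so p-values here measure only the spread between samples.

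VEGF ligands are secreted proteins that act on receptor tyrosine kinases of endothelial cells. VEGF-A binds the receptors encoded by Flt1 and Kdr and drives the sprouting and leakiness of vessels through the latter. VEGF-B and PlGF, the product of Pgf, bind the Flt1 receptor, whereas VEGF-C and VEGF-D bind the Flt4 receptor of lymphatic vessels. In the growth plate, hypertrophic chondrocytes make VEGF-A, and vessels enter the cartilage before it is replaced by bone. Low oxygen raises Vegfa transcription through the hypoxia-inducible factors.

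Reads counted on genes numbered from 9225518 to 18403795 in the 6 samples. Levels are given in CPM, the edgeR unit of counts scaled to library size, here with TMM factors. The limit of detection was set at 3 reads, which covers counting error only. Scaled to the reads counted on genes alone, without TMM factors, 3 reads correspond to between 0.163 and 0.325 CPM. Unmapped reads made up 5.47%, 3.84% and 14.9% of the libraries of 0%-Axitinib replicates 1, 2 and 3, and 48.4%, 29.2% and 16.8% of those of 3%-Axitinib replicates 1, 2 and 3. All 3%-Axitinib samples had a larger share than any 0%-Axitinib sample, and the species of these reads was not analysed here. Several libraries stood apart in the summed level of a marker list. The neutrophil list summed to 20881 CPM in 0%-Axitinib replicate 3 and to between 69.4 and 180 CPM in the other samples. The list of T cell and B cell genes summed to 385 CPM in the same replicate and to between 2.32 and 26.4 CPM elsewhere. In that replicate Cd3e, the gene of a CD3 subunit of the T cell receptor complex, was at 23.3 CPM, although nude mice have few T cells. It was singled out after its values were seen. The keratinocyte list summed to 934 CPM in 0%-Axitinib replicate 2 and to at most 14.2 CPM elsewhere. Skeletal muscle genes summed to 17386 and 9801 CPM in 3%-Axitinib replicates 1 and 3 and to between 23.9 and 190 CPM in the other samples. The bone list (osteoblast and osteocyte) summed to 13317 CPM in 3%-Axitinib replicate 2 and to at most 2576 CPM elsewhere.

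The ligand genes did not move in one direction. Vegfa rose and Pgf fell in the 3%-Axitinib group, while Vegfb and Vegfc did not meet the study's criterion (1.5-fold or more, with a P-value no greater than 0.05, which the study does not call adjusted or unadjusted and which is unadjusted here). Of the 15257 tested genes, 1456 (9.54%) met the criterion as higher and 1785 (11.7%) as lower, so that 1 of 4 ligands in each direction was set against these shares, and 4 genes are too few to tell them apart. With edgeR's quasi-likelihood p-values adjusted by Benjamini-Hochberg, 1 gene (0.00655%) reached 0.05 or less, and 0 of the 4 ligands did. Unadjusted, 2 ligands did, as did 3585 of the 15257 tested genes. After adjustment DESeq2's Wald test gave 2 ligands among 1961 genes, and limma-voom gave 0 ligands among 2 genes. Of the genes that met the criterion, 44.9% were higher. Scaling by total counts alone made this 28.8% and moved the median log2 fold change of all genes from -0.03 to -0.16, and no ligand changed its direction under any scaling tried.

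Vegfa, on chromosome 17 of GRCm38 from 46016993 to 46032369, encodes the main angiogenic ligand of the family. Its level was 69.2, 65.3 and 52.0 CPM in 0%-Axitinib replicates 1, 2 and 3, and 177, 117 and 106 CPM in 3%-Axitinib replicates 1, 2 and 3. Replicate 1 was the highest of the 3%-Axitinib samples, and every one of them lay above every 0%-Axitinib sample, as was so for 14.7% of all tested genes. The group difference was 2.14-fold (log2 fold change 1.10, standard error 0.26, 95% interval 0.49 to 1.70, edgeR adjusted p = 0.0979). In the libraries counted, these levels rest on between 958 and 1826 reads. Within the 3%-Axitinib group the sample with most Vegfa was also the one with the largest unmapped share and the most muscle RNA, and the part of these in the result was not tested.

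Pgf, on chromosome 12 from 85166635 to 85177790, encodes placental growth factor, a ligand of the Flt1 receptor that is induced in growing or inflamed vessels. Its level was 13.0, 12.4 and 34.4 CPM in 0%-Axitinib replicates 1, 2 and 3, and 4.95, 6.47 and 5.85 CPM in 3%-Axitinib replicates 1, 2 and 3. The 3%-Axitinib samples lay close together and all below the 0%-Axitinib samples, as for 16.6% of all tested genes, and 0%-Axitinib replicate 3 was far above the rest of its group. The level was 3.46-fold higher in the 0%-Axitinib group (log2 fold change -1.79, standard error 0.46, 95% interval -2.87 to -0.71, edgeR adjusted p = 0.104). Without 0%-Axitinib replicate 3, the library rich in neutrophil transcripts, the log2 fold change was -1.14 and the edgeR adjusted p was 0.0460. In that fit 1252 genes had an adjusted p of 0.05 or less, against 1 with all samples, so the lower p was not particular to Pgf. The criterion was no longer met with the skeletal muscle list as a covariate (-1.50) or without the muscle-rich 3%-Axitinib replicates 1 and 3 together (-1.62), which leaves 1 sample in that group. In bulk tissue, fewer cells of a type and less RNA per cell cannot be told apart.

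Vegfb, on chromosome 19 from 6982473 to 6987651, encodes a ligand linked to the survival of vessels and abundant in tissues with high oxidative metabolism. Its level was 40.5, 39.8 and 37.4 CPM in 0%-Axitinib replicates 1, 2 and 3, and 46.4, 45.5 and 58.8 CPM in 3%-Axitinib replicates 1, 2 and 3. All 3%-Axitinib samples were higher, as for 14.7% of all tested genes, but the difference was small, and the highest sample was 3%-Axitinib replicate 3. The fold change of 1.28 was below the criterion (log2 fold change 0.36, standard error 0.18, 95% interval -0.06 to 0.78, edgeR adjusted p = 0.268).

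Vegfc, on chromosome 8 from 54077606 to 54187096, encodes the ligand that drives the growth of lymphatic vessels. Its level was 12.1, 6.88 and 7.17 CPM in 0%-Axitinib replicates 1, 2 and 3, and 6.71, 7.65 and 6.02 CPM in 3%-Axitinib replicates 1, 2 and 3. Apart from the high 0%-Axitinib replicate 1, the samples of both groups were mixed. The log2 fold change was -0.36 (standard error 0.33, 95% interval -1.14 to 0.42, edgeR adjusted p = 0.528) and it was -0.05 without that replicate.

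The other ligand of the Flt4 receptor, VEGF-D, is listed in the table as Figf and lies on chromosome X from 164373378 to 164402650. Its level was 49.7, 29.0 and 18.2 CPM in 0%-Axitinib replicates 1, 2 and 3, and 76.9, 38.1 and 54.9 CPM in 3%-Axitinib replicates 1, 2 and 3. The groups overlapped, because 3%-Axitinib replicate 2 lay below 0%-Axitinib replicate 1. The log2 fold change was 0.81 (standard error 0.41, edgeR adjusted p = 0.279), and the criterion was met without 0%-Axitinib replicate 1 (1.26). The value was smaller with the muscle covariate (0.20), without 3%-Axitinib replicates 1 and 3 together (0.22), without 0%-Axitinib replicate 3 (0.52) and without 3%-Axitinib replicate 1 (0.52).

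**Figure D1:**
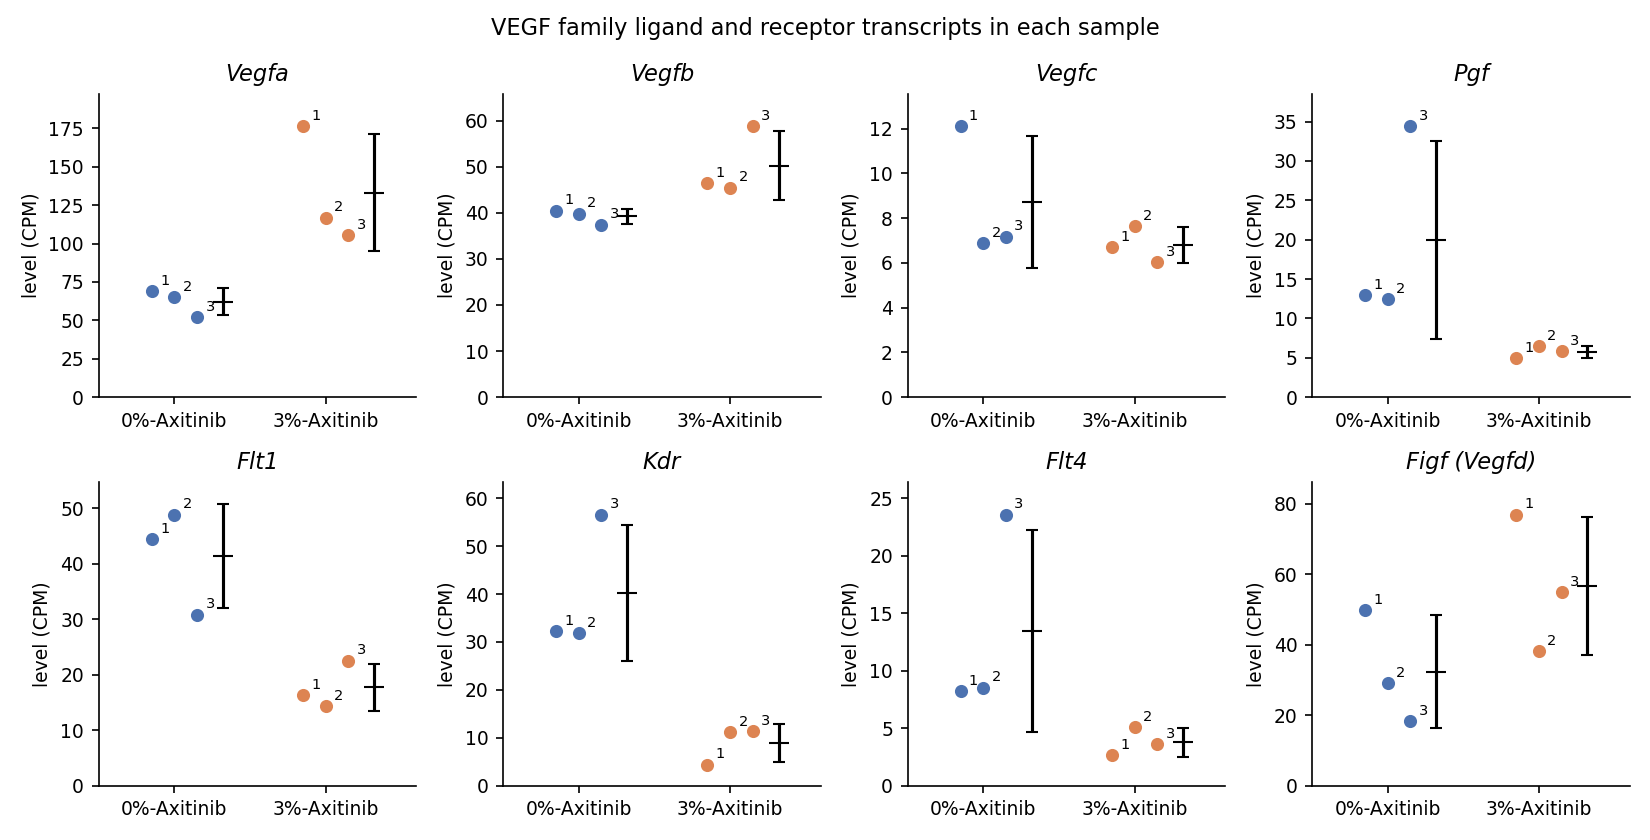
Level in CPM (vertical axis) of the ligand genes Vegfa, Vegfb, Vegfc, Pgf and Figf and of the receptor genes Flt1, Kdr and Flt4 in each sample of the 0%-Axitinib group (blue) and the 3%-Axitinib group (orange), where the small digits give the replicate and the black bars the mean ± SD of 3 samples. Vegfa was between 52.0 and 69.2 CPM in the 0%-Axitinib group and between 106 and 177 CPM in the 3%-Axitinib group, while Pgf, Flt1, Kdr and Flt4 were lower in every 3%-Axitinib sample.

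To compare the ligands with each other, levels were divided by the length of their merged exons. In the 0%-Axitinib group the order was Vegfb (24.4 ± 0.997 CPM per kilobase, SD, n = 3), Vegfa (14.5 ± 2.10), Pgf (6.87 ± 4.32) and Vegfc (3.56 ± 1.20). All samples of Vegfb lay above those of Vegfa, and those of Vegfa above those of Pgf, whereas Pgf and Vegfc overlapped. In the 3%-Axitinib group, Vegfb (31.3 ± 4.65 CPM per kilobase, SD, n = 3) and Vegfa (31.0 ± 8.88) overlapped, followed by Vegfc (2.77 ± 0.335) and then Pgf (1.98 ± 0.263), which did not overlap. Figf, the gene of VEGF-D, had 13.4 ± 6.65 CPM per kilobase in the 0%-Axitinib group (mean ± SD, n = 3), where it overlapped with Vegfa and Pgf. In the 3%-Axitinib group it had 23.5 ± 8.08 CPM per kilobase (mean ± SD, n = 3), where it overlapped with Vegfa and Vegfb.

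The make-up of the ligand pool was then taken within each sample, which needs no scaling between libraries. The pool leaves out Figf, whose level per kilobase overlapped with that of Vegfa in both groups, so the shares are of the 4 ligands only. Vegfa made up 31.8%, 32.3% and 24.2% of the summed length-scaled counts of the 4 ligands in 0%-Axitinib replicates 1, 2 and 3, and 55.3%, 44.8% and 37.5% in 3%-Axitinib replicates 1, 2 and 3. Its share was larger in every 3%-Axitinib sample, by 16.4 percentage points on average. Pgf made up 8.82%, 9.08% and 23.6% of the pool in 0%-Axitinib replicates 1, 2 and 3, and 2.29%, 3.66% and 3.06% in 3%-Axitinib replicates 1, 2 and 3. Its share was smaller in every 3%-Axitinib sample, by 10.8 percentage points on average, or by 5.94 without 0%-Axitinib replicate 3. Vegfc held 7.17 ± 2.22% in the 0%-Axitinib group against 4.18 ± 0.821% in the 3%-Axitinib group (mean ± SD, n = 3 each), also without overlap, the groups being closest at 5.83% and 5.13%. Without 0%-Axitinib replicate 1 the difference shrank to -1.71 percentage points. As shares of a fixed total fall when another member rises, this does not show a change of Vegfc itself, whose level in CPM overlapped between the groups. Vegfb held the largest share in the 0%-Axitinib group at 49.6 ± 3.12%, against 47.0 ± 8.47% in the 3%-Axitinib group (mean ± SD, n = 3 each), where its samples lay on both sides of the other group. In exact two-sided permutation tests, p was 0.1 for Vegfa, Vegfc and Pgf (0.133 after adjustment over the 4 shares), the smallest p that 3 samples against 3 allow, and 0.7 for Vegfb.

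Ratios between ligands were also taken within each sample. The log2 ratio of Vegfa to Pgf, per kilobase, was 1.85, 1.83 and 0.03 in 0%-Axitinib replicates 1, 2 and 3, and 4.59, 3.61 and 3.61 in 3%-Axitinib replicates 1, 2 and 3. All 3%-Axitinib samples had the higher ratio, and the lowest value was that of 0%-Axitinib replicate 3. For Vegfa to Vegfb, the log2 ratio was -0.64, -0.70 and -0.94 in 0%-Axitinib replicates 1, 2 and 3, and 0.51, -0.05 and -0.57 in 3%-Axitinib replicates 1, 2 and 3. Vegfb thus exceeded Vegfa in every 0%-Axitinib sample, and Vegfa exceeded Vegfb in 3%-Axitinib replicate 1 only. The groups did not overlap for any of the 6 pairs of ligands (exact two-sided permutation test, p = 0.1 for each, also after adjustment over the 6 pairs). The 6 ratios come from 4 values in each sample and are not separate results, and the share of other gene pairs that separate in this way was not computed.

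The genes of the 3 receptor kinases fell, while the coreceptor genes did not meet the criterion. Of the 5 tested genes of receptors and coreceptors, these 3 fell, beside 11.7% of all tested genes, and the median log2 fold change was -1.22, beside -0.03. Kdr encodes the main signalling receptor of VEGF-A, and its level was 32.2, 31.9 and 56.6 CPM in 0%-Axitinib replicates 1, 2 and 3, and 4.40, 11.1 and 11.3 CPM in 3%-Axitinib replicates 1, 2 and 3. Every 3%-Axitinib sample was lower (log2 fold change -2.16, standard error 0.43, edgeR adjusted p = 0.0965), with replicate 1, the sample with most Vegfa, at the bottom. Flt1 encodes the receptor shared by VEGF-A, VEGF-B and PlGF, also made as a soluble trap for ligands. Its level was 44.4, 48.9 and 30.9 CPM in 0%-Axitinib replicates 1, 2 and 3, and 16.3, 14.4 and 22.5 CPM in 3%-Axitinib replicates 1, 2 and 3. Its groups did not overlap either, and the log2 fold change was -1.22 (standard error 0.27, edgeR adjusted p = 0.0972). All 3%-Axitinib samples lay below all 0%-Axitinib samples for 16.6% of all tested genes. Flt4, the gene of the receptor for VEGF-C and VEGF-D, was at 8.25, 8.51 and 23.6 CPM in 0%-Axitinib replicates 1, 2 and 3, and at 2.64, 5.10 and 3.59 CPM in 3%-Axitinib replicates 1, 2 and 3. Like Pgf, it was highest in 0%-Axitinib replicate 3. Its value of -1.83 on the log2 scale (standard error 0.52, edgeR adjusted p = 0.121) became -1.15 without that sample. Its call was lost with the muscle covariate (-1.30) and without 3%-Axitinib replicates 1 and 3 together (-1.39).
The neuropilin genes Nrp1 and Nrp2, whose products present ligands to the receptors, had log2 fold changes of -0.46 (standard error 0.29) and -0.50 (standard error 0.29). Their groups overlapped, and both met the criterion without 0%-Axitinib replicate 3 (-0.67 and -0.69).

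The balance of ligand and receptors was expressed as the log2 ratio of Vegfa to the sum of Flt1 and Kdr, per kilobase and within each sample. It was 1.24, 1.09 and 0.51 in 0%-Axitinib replicates 1, 2 and 3, and 4.61, 3.57 and 3.08 in 3%-Axitinib replicates 1, 2 and 3. The lowest 3%-Axitinib sample was well above the highest 0%-Axitinib sample. As a geometric mean, the ratio of Vegfa to receptor transcripts was 1.92 in the 0%-Axitinib group, against 13.5 with 3% axitinib (exact two-sided permutation test, p = 0.1). With Vegfa higher and Flt1 and Kdr lower in every 3%-Axitinib sample, the ratio had to separate the groups. It is not a separate result, and its p was fixed by those values. The summed level of the 14 endothelial marker genes was 1247, 843 and 1279 CPM in 0%-Axitinib replicates 1, 2 and 3, and 424, 522 and 611 CPM in 3%-Axitinib replicates 1, 2 and 3. It was lower in every 3%-Axitinib sample, and its part in the ratio was not tested. Of these 14 genes, 12 fell and none rose, beside 11.7% and 9.54% of all tested genes, with a median log2 fold change of -1.42, beside -0.03. The number that fell was 8 without 3%-Axitinib replicate 2, 8 without 3%-Axitinib replicates 1 and 3 together, 9 without 0%-Axitinib replicate 1 and 9 with the muscle covariate. Eng, the endothelial gene with the highest mean over all 6 samples, was nearly equal in both groups (169 ± 40.8 against 168 ± 29.6 CPM, mean ± SD, n = 3 each). Pecam1, the highest in the 0%-Axitinib group, fell from 213 ± 60.6 to 69.6 ± 16.4 CPM (mean ± SD, n = 3 each). None of the 14 genes was at 0 in any sample.

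**Figure D2:**
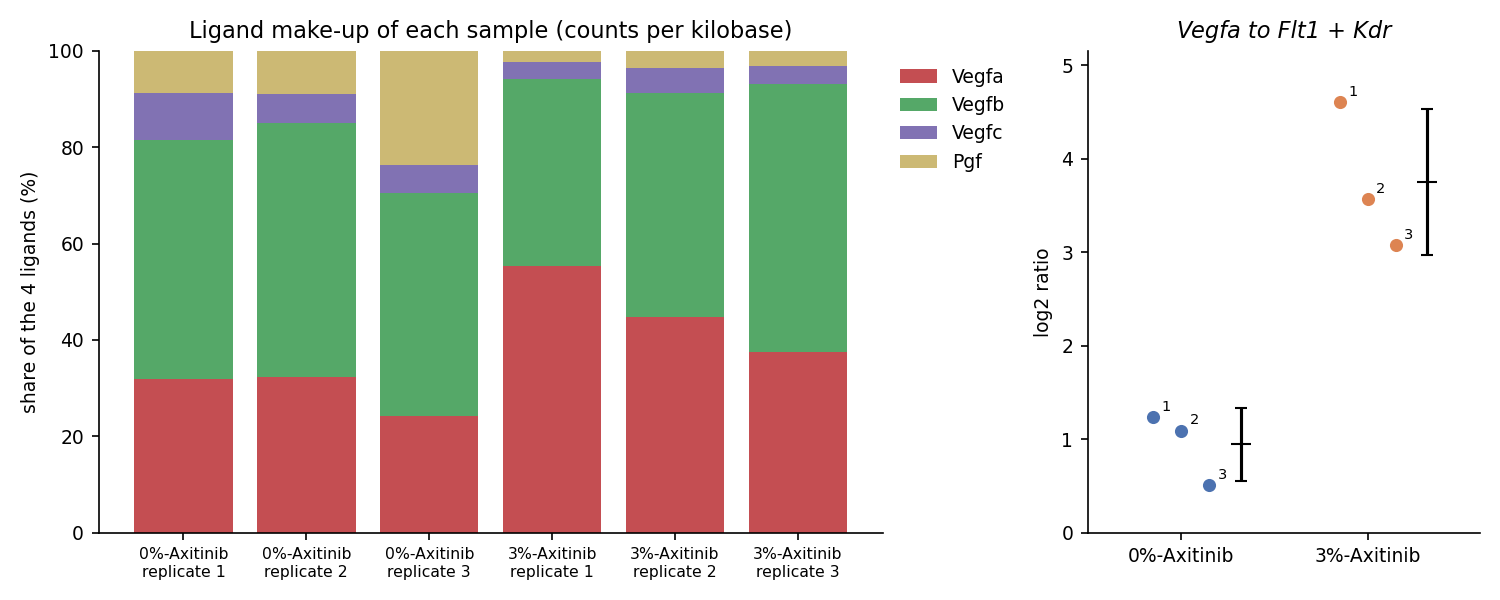
Left, share of each ligand in the summed length-scaled counts of the 4 ligands (vertical axis, %) in each sample; right, log2 ratio of Vegfa to Flt1 plus Kdr per kilobase in each sample, with replicate numbers and the mean ± SD of 3 samples in black. The Vegfa share was between 24.2% and 32.3% in the 0%-Axitinib group and between 37.5% and 55.3% in the 3%-Axitinib group, and the log2 ratio was between 0.51 and 1.24 and between 3.08 and 4.61.

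Of 14 endothelial marker genes 12 fell, with a median log2 fold change of -1.42, so a fall was not particular to the next list. That list held endothelial genes that VEGF signalling induces. Of the 12 tested genes of this list, 6 fell and 0 rose by edgeR's test, beside 11.7% and 9.54% of all tested genes, with a median log2 fold change of -0.88, beside -0.03. Without 3%-Axitinib replicates 1 and 3 together 4 fell, and without 0%-Axitinib replicate 1 alone 6 fell and 1 rose. Those that fell were the Notch ligand gene Dll4, the Notch feedback gene Nrarp, the tip cell genes Esm1 and Apln, Angpt2, which encodes a vessel-destabilizing ligand of the Tie2 receptor, and the chemokine receptor gene Cxcr4. Dll4 was at 19.0, 14.9 and 32.4 CPM in 0%-Axitinib replicates 1, 2 and 3, and at 2.75, 4.56 and 6.31 CPM in 3%-Axitinib replicates 1, 2 and 3. It was lower in every 3%-Axitinib sample, as were 16.6% of all tested genes, with a log2 fold change of -2.27 (standard error 0.43, edgeR adjusted p = 0.0965). For Esm1 the log2 fold change was -5.54 (standard error 1.37), with 11, 4 and 0 reads in the 3%-Axitinib samples, and it became -3.95 when 0%-Axitinib replicate 3 was left out, -7.07 when 3%-Axitinib replicate 1 was and -4.80 when 3%-Axitinib replicate 3 was. Nrarp had 44, 35 and 34 reads in the 0%-Axitinib samples and 2, 3 and 4 reads in the 3%-Axitinib samples, at or near the limit of detection. Apln was at 120 CPM in 0%-Axitinib replicate 3 and at 21.7 and 16.9 CPM in replicates 1 and 2, and its log2 fold change of -2.84 became -1.39 without replicate 3. The log2 fold changes of Cxcr4 and Angpt2 were -1.24 (standard error 0.22) and -1.20 (standard error 0.33). The muscle covariate ended the calls of Esm1 (-5.41) and Apln (-2.33), and leaving out 3%-Axitinib replicates 1 and 3 together ended those of Apln (-2.46) and Angpt2 (-0.62).

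Among 28 genes of VEGF receptor signalling, 2 rose and 3 fell, with a median log2 fold change of -0.28, beside 9.54% higher and 11.7% lower among all tested genes, shares from which so few genes cannot be told apart. Scaled by total counts, 1 rose and 6 fell, and without 3%-Axitinib replicates 1 and 3 together 0 rose and 1 fell. Prkcb, which encodes a protein kinase C isoform, fell from 68.7 ± 13.6 to 27.0 ± 9.43 CPM (mean ± SD, n = 3 each), and the adaptor gene Nck1 from 62.5 ± 7.66 to 38.4 ± 3.12 CPM (mean ± SD, n = 3 each). Hspb1, the gene of a small heat shock protein that is phosphorylated downstream of p38 kinase, rose with a log2 fold change of 2.32 (standard error 0.56), or 1.63 without 3%-Axitinib replicate 1. It was at 42.2, 33.9 and 16.2 CPM in 0%-Axitinib replicates 1, 2 and 3, and at 269, 74.3 and 116 CPM in 3%-Axitinib replicates 1, 2 and 3, and the highest sample was again the one with most muscle RNA. The adaptor gene Sh2d2a (-3.29) rested mostly on 0%-Axitinib replicate 3, and its call was lost without that sample (-1.73), without 3%-Axitinib replicate 1 (-3.15) or 2 (-2.88), with limma-voom (-2.67) and with the muscle covariate (-3.73), whereas the value was -4.12 without 3%-Axitinib replicate 3. Leaving out 3%-Axitinib replicates 1 and 3 together ended the calls of Sh2d2a (-4.85), Hspb1 (1.25) and Nck1 (-0.84). Hras (0.59) stood at the edge of the criterion, which it missed under 12 of 16 alternatives, among them without 0%-Axitinib replicate 1 (0.51) or 2 (0.45) and without 3%-Axitinib replicate 1 (0.56) or 3 (0.56).

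For genes that process or retain the ligands, 2 of 11 tested genes rose and 0 fell by edgeR's test, with a median log2 fold change of 0.13. Beside 9.54% higher and 11.7% lower among all tested genes, so few genes cannot be told apart from the background. The direction of the median was not stable: it was -0.01 with total counts and 0.01 without 0%-Axitinib replicate 3, and leaving out 3%-Axitinib replicate 1 or 3 made it 0.34 or -0.03. Pcsk5, a proprotein convertase gene whose product can cleave VEGF-C and VEGF-D precursors, was at 16.2, 7.76 and 5.27 CPM in 0%-Axitinib replicates 1, 2 and 3, and at 70.3, 42.0 and 34.7 CPM in 3%-Axitinib replicates 1, 2 and 3. All 3%-Axitinib samples were higher, as for 14.7% of all tested genes, with a log2 fold change of 2.33 (standard error 0.48, edgeR adjusted p = 0.0965). Ctgf, the gene of a matricellular protein that binds VEGF-A, rose with a log2 fold change of 1.65 (standard error 0.41).

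Of 15 tested genes that regulate Vegfa transcripts, 1 rose and 2 fell, with a median log2 fold change of -0.15, beside 9.54% higher and 11.7% lower among all tested genes, and these counts too cannot be told apart from those shares. The median was -0.28 with total counts and without 3%-Axitinib replicate 1 or 3, and -0.31 with the muscle covariate. It was -0.10 without 0%-Axitinib replicate 1 or 2. Scaled by total counts, 0 rose and 2 fell. Those that fell were Hif1a and Epas1, which encode subunits of hypoxia-inducible factors. Hif1a was at 85.3, 79.0 and 74.5 CPM in 0%-Axitinib replicates 1, 2 and 3, and at 56.1, 58.0 and 40.0 CPM in 3%-Axitinib replicates 1, 2 and 3. All 3%-Axitinib samples were lower, as for 16.6% of all tested genes, and the log2 fold change was -0.63 (standard error 0.20, edgeR adjusted p = 0.138). For Epas1 it was -0.70 (standard error 0.24), and for Egln2, which encodes an oxygen-sensing prolyl hydroxylase, it was 0.68 (standard error 0.21). These calls lay close to the threshold. That of Hif1a was lost without 0%-Axitinib replicate 1 (-0.58) or 3%-Axitinib replicate 3 (-0.48), and that of Egln2 without 0%-Axitinib replicate 2 (0.64) or 3%-Axitinib replicate 3 (0.51). That of Epas1 was lost without 0%-Axitinib replicate 1 (-0.58) or 2 (-0.64) and without 3%-Axitinib replicate 2 (-0.63) or 3 (-0.69). The muscle covariate ended those of Hif1a (-0.55) and Egln2 (0.41), leaving out 3%-Axitinib replicates 1 and 3 together ended all 3 (Hif1a -0.47, Epas1 -0.87, Egln2 0.35), and scaling by total counts ended that of Egln2 (0.55). Hypoxia-inducible factors are set mainly by protein stability, which RNA counts do not measure.

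Of 23 genes outside glycolysis that hypoxia induces, 7 rose and 0 fell by edgeR's test, beside 9.54% and 11.7% of all tested genes. The median log2 fold change was 0.69, beside -0.03, and 21 of the 23 genes had a positive value, as had 7352 of the 15257 tested genes. The median was 0.41 without 0%-Axitinib replicate 3, 0.37 with the muscle covariate and 0.25 without 3%-Axitinib replicates 1 and 3 together, and without 3%-Axitinib replicate 1 alone 6 genes rose and 1 fell. The carbonic anhydrase gene Car12 rose by a log2 value of 3.02 (standard error 0.88), or 1.66 without 3%-Axitinib replicate 2, the library rich in bone transcripts. The collagen cross-linking enzyme gene Lox had one of 1.93 (standard error 0.52), the collagen hydroxylase gene P4ha2 one of 0.84 (standard error 0.23) and the stress response gene Ddit4 one of 1.59 (standard error 0.34). Bnip3, a mitophagy gene, had one of 1.20 (standard error 0.46), and its call was lost without 0%-Axitinib replicate 1 (1.29) or 3 (0.94) and without 3%-Axitinib replicate 1 (0.65) or 3 (1.30). Its call was also lost with total counts (1.08), with the muscle covariate (0.37) and without 3%-Axitinib replicates 1 and 3 together (0.25), the last of which ended the call of Ddit4 too (0.70). Exons of Nrp1, Ctgf, Nrarp, Dll4, Hif1a, Egln2, Bnip3, Lox, Eng and Cd3e overlap those of other annotated genes, and as strand-specific counting is not stated in the sources used here, their levels are uncertain to that extent. No annotated gene overlaps the 4 ligands, Figf, Flt1, Kdr or Flt4.

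**Figure D3:**
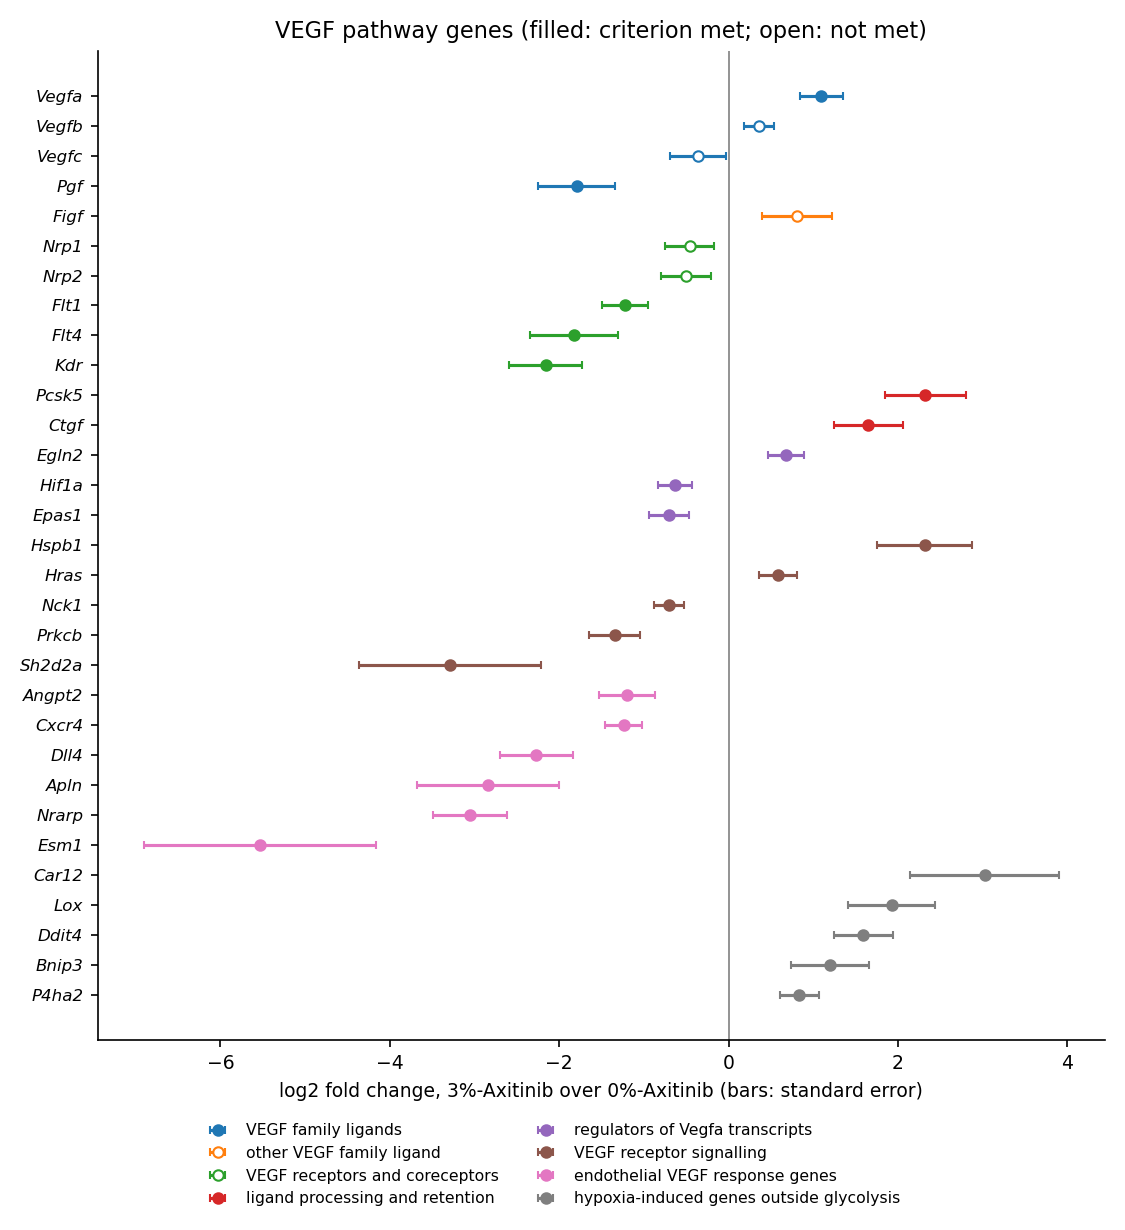
Log2 fold change of the 3%-Axitinib group over the 0%-Axitinib group (horizontal axis) with its standard error for the ligands, receptors and named pathway genes, from 3 samples in each group, coloured by gene list, with filled points for genes that met the criterion. Vegfa lay at 1.10 and Pgf at -1.79, Kdr at -2.16, and the hypoxia-induced genes drawn, all of which met the criterion, between 0.84 and 3.02.

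The genes whose profile over the 6 samples was closest to that of each ligand were sought among 14343 tested genes with a mean of at least 1 CPM. Likeness was measured as the root mean square difference of log2 CPM after centring each gene on its own mean. For Vegfa, these were Ccdc86 (0.13), Cml3 (0.17) and Wdr54 (0.18). Being chosen for the same profile, these genes share its direction by construction. The call of Cml3 was lost without 3%-Axitinib replicate 1 (1.01), and that of Wdr54 without the same sample (0.76) or 0%-Axitinib replicate 2 (0.84). The muscle covariate ended the calls of Cml3 (1.10) and Wdr54 (0.76), and leaving out 3%-Axitinib replicates 1 and 3 together ended those of Ccdc86 (0.82), Cml3 (1.13) and Wdr54 (0.79). For Vegfb, they were Rmnd5b (0.03), Ppp1r16a (0.04) and Cyhr1 (0.05), and for Vegfc, Tjp1 (0.05), Asgr2 (0.12) and Hsd17b1 (0.13), and none of these met the criterion. For Pgf, they were the cytokine gene Osm (0.13), Sag (0.15) and the lymphoid transcription factor gene Ikzf1 (0.16). By the same choice they share the high 0%-Axitinib replicate 3 of Pgf. Their log2 fold changes of -1.61, -1.80 and -1.81 were -1.03, -1.08 and -0.97 without that replicate, where Sag no longer met the criterion. The call of Sag was also lost without 3%-Axitinib replicate 1 (-1.67) or 2 (-1.75) and with limma-voom (-1.55). All 3 calls were lost with the muscle covariate (Osm -1.25, Sag -1.62, Ikzf1 -1.44) and without 3%-Axitinib replicates 1 and 3 together (-1.37, -1.87 and -1.62).

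The promoter windows of the ligands are shown because the hypoxia-inducible factors that act on Vegfa recognize a short core, searched here as ACGTG and GCGTG on both strands. RefSeq sequences of GRCm38.p6, from 250 bases before to 50 bases after a transcript start, matched all 5 ligand genes with 7 windows. The core occurred in 3 of the 7 windows, and in 43.8% of all 32851 promoter windows. At Vegfb it occurred at both of the positions printed here, upstream of the gene and on the minus strand of the genome, at chr19:6987718-6987742 and chr19:6987874-6987898, with the core or its reverse complement in capitals.
Vegfb near the start: ggtggggagcGCGTGtttaggtcac
Vegfb far from the start: tccttcaggtCACGCatctcctcac
At Vegfa, no core lay in the window of the first start, and the pair of cores in the window of an internal start lay in a coding exon. They overlap in the printed stretches, at chr17:46025360-46025384 and chr17:46025367-46025391 on the minus strand.
Vegfa internal, ACGTG: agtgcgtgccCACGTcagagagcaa
Vegfa internal, GCGTG: gccctggagtGCGTGcccacgtcag
At Pgf, 1 core lay in an exon outside the coding part. The windows of Vegfc and Figf held none. For these genes and for the first start of Vegfa, this says only that these letters are not in these windows. Sequence further than 250 bases before or 50 bases after a start was not searched.

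Markers of the other cell types were read beside the ligands. The most abundant gene of a list was that with the highest mean CPM over all 6 samples, and the order could differ within a group. The macrophage list, a cell type that can make VEGF-A, summed to 11716, 12190 and 8944 CPM in 0%-Axitinib replicates 1, 2 and 3, and to 8474, 10872 and 16950 CPM in 3%-Axitinib replicates 1, 2 and 3. The groups overlapped, 0 of its 12 genes met the criterion by edgeR's test, the median log2 fold change was -0.07, and the most abundant gene was Lyz2. The skeletal muscle list had 17 of 19 tested genes higher (9.54% of all tested genes), with a median log2 fold change of 6.77, Acta1 as the most abundant gene, and 4 of its 20 genes at 0 in 3%-Axitinib replicate 2. These calls rest on 3%-Axitinib replicates 1 and 3: without both, 0 genes were higher and 1 was lower (median -1.56), 2 of the 19 genes were higher without overlap between the groups (14.7% of all tested genes), and limma-voom called 1 gene. Without 1 sample, between 12 and 19 genes were higher. The chondrocyte list summed to 389, 241 and 256 CPM in 0%-Axitinib replicates 1, 2 and 3, and to 382, 1715 and 731 CPM in 3%-Axitinib replicates 1, 2 and 3. It was highest in 3%-Axitinib replicate 2. Of 12 tested genes, 7 were higher (9.54% of all tested genes), with a median log2 fold change of 1.74. Without 3%-Axitinib replicate 2, 5 were higher, with a median of 1.28. Comp was the most abundant gene over all samples, whereas Col2a1 was higher in the 3%-Axitinib group (262 against 243 CPM, means of 3 samples). The libraries hold RNA of tissue entangled with rabbit BEC, and whether rabbit reads were counted on mouse genes was not tested.

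The counts of the remaining lists stand beside 9.54% higher and 11.7% lower among all tested genes, and the small ones, such as 1 gene of a list, cannot be told apart from these shares. All 6 mast cell genes fell (median log2 fold change -2.92, Tpsb2 most abundant), with a median of -4.08 without 3%-Axitinib replicate 3 and 5 lower without 3%-Axitinib replicate 1 or with the muscle covariate. So did all 5 tested T cell and B cell genes (-4.26, Cd79a most abundant). Of these, 3 fell without 0%-Axitinib replicate 3 (-1.80), 2 with limma-voom, 2 with the muscle covariate and 2 with the replicate number as a block. With 9 genes tested, 2 fell without 3%-Axitinib replicate 3 and 1 without 3%-Axitinib replicates 1 and 3 together. Of 5 tested neutrophil genes 3 fell (-7.09, S100a9 most abundant), and without 0%-Axitinib replicate 3 none fell and 1 rose, with a median of 0.61. None fell with limma-voom, with the muscle covariate, with the replicate number as a block (-0.52) or when any 3%-Axitinib sample was left out. When 0%-Axitinib replicate 1 or 2 was left out, 6 of 6 tested genes fell. Of 10 pericyte and smooth muscle genes 4 fell (0.01, and -0.17 to 0.37 with 1 sample left out, Pdgfrb most abundant over all samples). In the 0%-Axitinib group Rgs5, which fell (-2.22), was higher than Pdgfrb (186 against 154 CPM, means of 3 samples). Of 8 adipocyte genes 1 rose and 2 fell (-1.17, Fabp4 most abundant). Of the latter list, 0 rose and 6 fell without 3%-Axitinib replicate 1 (-2.97), with limma-voom (-2.33) and with the muscle covariate (-4.19). Of 8 bone genes 3 rose (1.88, Ibsp most abundant), with a median of 0.70 without 3%-Axitinib replicate 2 and of 3.01 with 5 higher without 0%-Axitinib replicate 3. Of 9 fibroblast genes 1 rose (0.72, Col1a1 most abundant over all samples). None rose without 0%-Axitinib replicate 2 or 3, without 3%-Axitinib replicate 2, with total counts or with the replicate number as a block. In the 0%-Axitinib group Col1a2 was higher than Col1a1 (5417 against 4516 CPM, means of 3 samples). Of 4 tested keratinocyte genes 2 fell (-2.92), and the most abundant gene of that list, Krt1, was not tested because it did not pass the filter. None fell without 0%-Axitinib replicate 2 (median -0.02), without 3%-Axitinib replicate 1 or 2, with limma-voom (median -1.51) or with the muscle covariate. Of 5 tested genes, 4 fell without 0%-Axitinib replicate 1 or 3 (median -4.50 in both). Among lymphatic endothelial genes, Pdpn was most abundant over all samples, and Lyve1 in the 0%-Axitinib group (67.2 against 59.7 CPM, means of 3 samples). None of the 3 tested genes met the criterion (0.24), and the direction of their median was not stable. Leaving out 0%-Axitinib replicate 2 or 3 made it -0.03 or -0.19, and leaving out 3%-Axitinib replicate 1, or both it and replicate 3, made it -0.13 or -1.05. When 0%-Axitinib replicate 1 was left out it was 0.85, with 1 gene higher and 1 lower. The part of these cell types in the ligand levels was not tested.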

How the data were processed

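RNA-seq counts of 6 samples were used (3 of each group). The authors aligned reads to the mouse genome (mm10, GRCm38) with STAR 2.5.2b and deposited raw counts per gene, not normalized. The annotation release and strand setting are not given in the sources used here. The 4 lines that name no gene (unmapped, multimapping, outside genes, ambiguous) were left out. Counts were analysed with R 4.3.3 and edgeR 4.0.16 (filterByExpr with minimum count 10 and minimum total 15, TMM, quasi-likelihood test, Benjamini-Hochberg adjustment over 15257 genes). DESeq2 1.42.0, limma 3.58.1, other scalings and filters, covariates and samples left out were tried as alternatives. A check of the test on simulated data is not reported here, and no statement rests on it. Gene positions and merged exon lengths came from GENCODE M21. Single values were compared by exact two-sided permutation tests. Replicate numbers were not taken as pairs. No samples of a group were duplicates (chi-square per degree of freedom at least 42.9).

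The members, the 7 pathway lists and the 13 marker lists were chosen with earlier results of these data known. The text names the ligands, the tested receptor genes, the genes of each other pathway list that met the criterion (the 3 highest and 3 lowest log2 fold changes where over 6 did), the most abundant gene of each marker list and the 3 genes most like each ligand, apart from 1 gene of the hypoxia list that is not reported singly. Python 3.11.15 and matplotlib 3.10.9 made the figures.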

Additional observations from a re-analysis of the deposited data

How the results depend on the processing

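Under 16 alternatives, the log2 fold change of Vegfa kept its direction and met the criterion throughout (0.84 to 1.23), and those of Vegfb (0.20 to 0.43) and Vegfc (-0.51 to -0.05) kept their direction and did not meet it. Pgf kept its direction (-2.04 to -1.14) and missed the criterion with the muscle covariate (-1.50) and without both muscle-rich samples, 3%-Axitinib replicates 1 and 3 (-1.62), where 1 sample was left in the group and was assumed to vary like the others. Genes that met the criterion numbered 3241, and 2365 to 4422 with 1 sample left out, 1801 with the muscle covariate, 1166 without both muscle-rich samples and 1 when the adjusted p was used. Of the ligands 2 met it, 1 with the covariate, 1 without both muscle-rich samples and 0 when the adjusted p was used. Genes with an adjusted p of 0.05 or less numbered 1 in edgeR, 1961 in DESeq2, 2 in limma-voom, 15 with no filter, 0 with the muscle covariate, 0 without both muscle-rich samples, and 0 to 1252 with 1 sample left out (1252 without 0%-Axitinib replicate 3, 58 without 3%-Axitinib replicate 2). The difference in the Vegfb share, -2.57 percentage points, was -6.93 without 3%-Axitinib replicate 3 and reversed to 1.53 without 3%-Axitinib replicate 1. The log2 fold change of Asgr2 (-0.29) reversed to 0.0658 without both muscle-rich samples. The cause was not tested. With the replicate number as a block, 2603 genes met the criterion and 2 had an adjusted p of 0.05 or less, with 1.07 for Vegfa and -1.63 for Pgf, while Apln (-2.21) and Wdr54 (0.89) no longer met the criterion and Figf (0.87) did. Same-numbered samples had correlations of deviations of 0.18, -0.12 and -0.17, so not every sample was most like its own number. At 3 samples in each group and down to 9225518 reads, small changes of weakly expressed genes such as Vegfc could be missed.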
